A study of Homo sapiens with 9 samples.

Results

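The transcripts described here encode the nuclear subunits and assembly factors of respiratory complexes I and II. They were the rows of both tables whose gene symbol begins with NDUF or SDH followed by A, B, C, D, S, V or AF, which gave 49 transcripts of the 9221 listed in either table. The table for PF8503 held 49 of them and the table for PF846 held 48, since SDHAF4 was listed for PF8503 only. The rule itself used gene symbols and no measured value, but the group was chosen with earlier results of these data known. Ribosome-protected mRNA fragments were sequenced from Huh-7 cells, an established human hepatocellular carcinoma line, after 1 hr with 1.5 μM PF8503 (PF-06378503), with 1.5 μM of the related compound PF846 (spelled PF-067446846 in the sample titles), or with 0.5% DMSO as vehicle. Each condition had 3 biological replicates, 9 libraries in all. All 8 hepatocyte markers checked (ALB, APOA1, APOB, AFP, TF, SERPINA1, FGB and TTR) were listed in vehicle, from 1296 normalized counts for SERPINA1 to 212970 for AFP, against a median of 397 over all transcripts.

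Complex I, NADH:ubiquinone oxidoreductase, takes electrons from NADH to ubiquinone and pumps protons across the mitochondrial inner membrane. Its core subunits come from both genomes, the membrane-embedded ones from mitochondrial DNA and those of the matrix arm from the nucleus, and a large set of nuclear accessory subunits surrounds them. Complex II, succinate dehydrogenase, oxidizes succinate in the citric acid cycle and passes the electrons to ubiquinone, and all of its subunits are nuclear. PF846 and its relatives stall ribosomes on a limited set of nascent chains, and proteins destined for mitochondria are made by the same cytosolic ribosomes as the rest.

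Footprint signal was the number of reads on a transcript divided by the size factor of its library, which allows for depth. By default counting ran from codon 11 and left out the final 10 codons. Some transcripts have a clear DMax, the position where cumulative reads with compound and with vehicle lie farthest apart, and there counting began 3' of it. The beginnings of the coding sequences of the 6 transcripts on which the results below turn are shown here because counting by default starts within them. Each runs 5' to 3' over 30 codons of the canonical GENCODE version 44 transcript (GRCh38), and capitals mark the part from codon 11 on, where counting starts by default. For NDUFB8 and NDUFAB1 with PF846 and for NDUFA1 with PF8503, counting began 3' of DMax instead. The first codon counted there is not known and may lie past the part shown.
NDUFB8: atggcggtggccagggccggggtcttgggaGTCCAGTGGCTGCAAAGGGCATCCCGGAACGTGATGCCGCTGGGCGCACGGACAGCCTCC
NDUFAB1: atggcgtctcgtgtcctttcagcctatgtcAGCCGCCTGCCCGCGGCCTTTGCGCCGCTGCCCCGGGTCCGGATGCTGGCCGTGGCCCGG
NDUFA1: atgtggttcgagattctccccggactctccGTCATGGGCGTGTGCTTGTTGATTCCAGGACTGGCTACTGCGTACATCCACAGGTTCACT
NDUFC2: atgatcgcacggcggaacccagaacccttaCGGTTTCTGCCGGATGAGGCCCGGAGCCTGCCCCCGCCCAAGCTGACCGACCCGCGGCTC
NDUFV2: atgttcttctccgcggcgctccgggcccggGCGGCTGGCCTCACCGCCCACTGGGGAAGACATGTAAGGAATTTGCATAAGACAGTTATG
SDHD: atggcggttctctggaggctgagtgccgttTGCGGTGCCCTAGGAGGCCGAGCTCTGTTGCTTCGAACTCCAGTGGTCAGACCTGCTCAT

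The deposited tables give a mean per condition. The whole-number read counts of the 3 libraries behind each mean were recovered from its 15 digits, for 99.9% of transcripts in each table and for every NDUF and SDH transcript. The vehicle libraries enter both tables, and their recovered counts were identical in 8629 of the 8630 transcripts counted over the same region. Libraries held 7647505 to 12355199 counted reads with vehicle and 6732730 to 11868352 with PF8503 in the PF8503 table, and 4997445 to 15410889 with PF846 in the other. They are numbered 1 to 3 within a condition from the lowest to the highest size factor, and the number is only a name, since the recovered counts do not carry the replicate numbers of the sample titles.

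Library 3 of each condition, by the numbering the one with the most counted reads, stood apart from the others. Whether depth has a part in this was not tested. Over 7327 transcripts, the deviations of library 3 from the mean of its condition correlated between conditions with an r of 0.68 to 0.69, and with those of libraries 1 and 2 of other conditions with an r of -0.58 to -0.33. The negative values follow in part from the positive ones, since deviations cancel out within a condition. Libraries 1 and 2, paired between conditions by likeness, also correlated, with an r of 0.40 to 0.55. Among the 45 NDUF and SDH transcripts counted over the same region in both tables, 29 deviated in the same direction in all 3 libraries numbered 3 (64.4%, against 62.7% of all transcripts). NDUFC2, an accessory subunit of the membrane arm, had the largest such deviation of the 45, with library 3 lower than the mean of libraries 1 and 2 by a log2 difference of -0.92 with vehicle, -0.77 with PF8503 and -1.06 with PF846. NDUFA5 followed at -0.61, -0.60 and -0.39, and NDUFS7 stood at the other end with 0.32, 0.31 and 0.37. The lane codes in the library names of the sample descriptions place 1 replicate of each condition in another lane than the rest, but each condition had lanes of its own, so that lane and condition cannot be told apart, and which recovered library came from which lane is not known. Results are therefore also given without library 3, which drops the deepest library of each condition, and with a batch term for that library. A further fit, the matched block, paired the libraries of the conditions by the likeness of their deviations, which comes from the data and not from the labels. All of these were added after the values were seen. Over all transcripts, limma at an adjusted p under 0.05 called 37 of 9146 with PF8503, 22 of 8832 with PF846 and 2 of 8629 between the compounds. The batch term raised these calls to 90, 33 and 20, and the matched block to 150, 61 and 40.

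**Figure D1:**
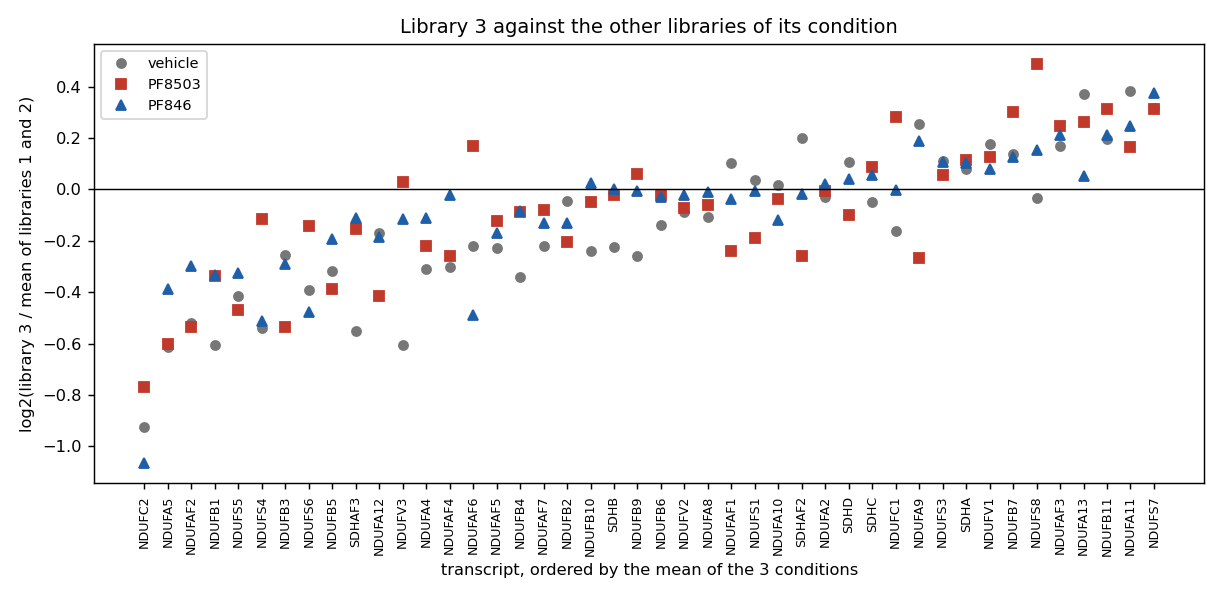
Log2 ratio of library 3 to the mean of libraries 1 and 2 (vertical axis) for 44 of the 45 transcripts (horizontal axis, ordered by the mean of the 3 conditions), with 1 point per condition. The 3 conditions move together at both ends, from NDUFC2 at -0.92, -0.77 and -1.06 to NDUFS7 at 0.32, 0.31 and 0.37.

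The levels of the transcripts in vehicle were compared as footprint density, the normalized counts per codon counted, so that long and short coding sequences can be set side by side. The highest density was that of NDUFA4, with 95.5 ± 11.4 normalized counts per codon (SD, n = 3). NDUFA4 carries a complex I name but is now placed in complex IV. NDUFS5, an accessory subunit of complex I, followed with 32.01 ± 5.20, and NDUFA1, a small accessory subunit of the membrane arm, with 24.1 ± 0.530. The lowest densities were those of assembly factors, with 0.392 ± 0.0729 for NDUFAF6, 0.478 ± 0.0412 for NDUFAF7, a methyltransferase, and 0.549 ± 0.0827 for SDHAF4, which helps to assemble the SDHA subunit.

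By group, the median density was 11.9 normalized counts per codon in the 11 NDUFB subunits of the membrane arm, 6.51 in the 10 accessory NDUFA subunits and 1.47 in the 7 complex I assembly factors. The core subunits, which carry the flavin and the iron-sulfur clusters, spanned 3.62 ± 0.156 for NDUFS1 to 17.3 ± 0.631 for NDUFV2. Between them lay NDUFS8 (16.2 ± 1.46), NDUFV1 (10.8 ± 0.791), which binds NADH, NDUFS3 (6.63 ± 0.326) and NDUFS7 (4.49 ± 0.623). The subunits of complex II were as unequal, with 14.7 ± 0.721 for the membrane anchor SDHC, 5.12 ± 0.456 for the iron-sulfur subunit SDHB, 3.37 ± 0.115 for the flavoprotein SDHA and 2.50 ± 0.130 for SDHD, the other membrane anchor. Of the 48 pairs of neighbours in the order of densities, 37 differed by no more than the larger of their SDs, so the exact order within those pairs is not resolved. The codons are those of GENCODE version 44, whereas the authors used canonical transcripts of version 24, and a region shortened in both tables would lower a density without showing here.

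**Figure D2:**
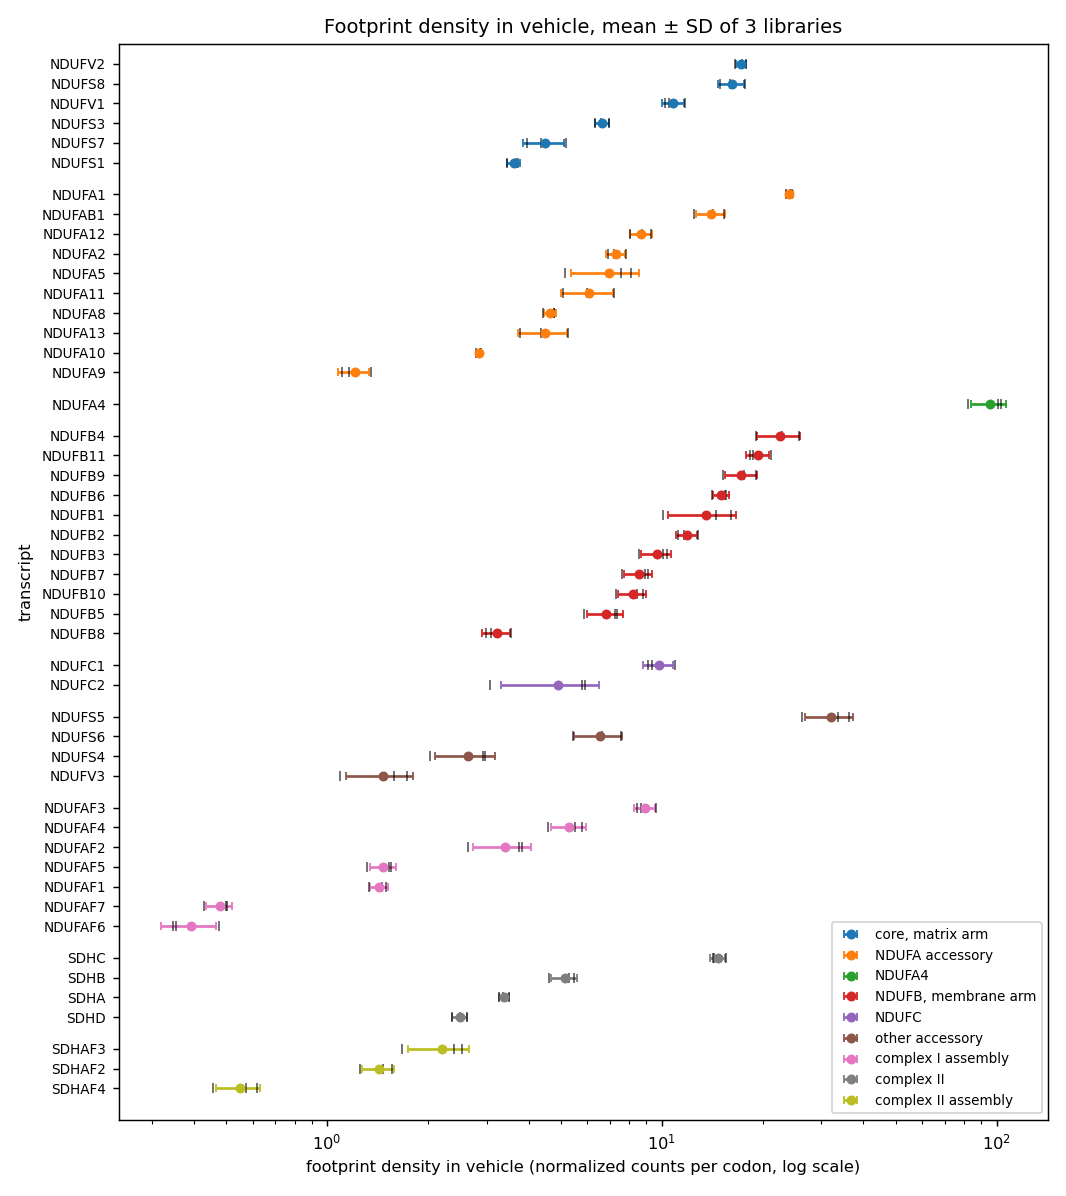
Footprint density with vehicle in normalized counts per codon (horizontal axis, log scale) for 48 of the 49 transcripts, grouped by role, as the mean ± SD of 3 libraries, with ticks for single libraries. NDUFA4 lies highest at 95.5 and NDUFAF6 lowest at 0.392, and the NDUFB subunits lie mostly above the assembly factors.

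With PF8503, most of the transcripts stayed close to vehicle. The log2 ratio of the deposited means passed 0.25 in either direction for 8 of 49 transcripts (16.3%, against 8.02% of all transcripts in the table), 3 of them higher (background 3.79%) and 5 lower (background 4.23%). The median ratio was -0.0097, against 0.013 over the whole table. Without the 3 transcripts whose counted region differed between the tables and SDHAF4, 5 of 45 passed. No transcript of the group passed limma's test across all transcripts at an adjusted p under 0.05 (background 0.405%), 4 had an unadjusted p under 0.05 (background 3.03%), and limma's voom also called 0. The standard errors ran from 0.091 to 0.27 on the log2 scale, with a median of 0.13, and 37 of the 49 intervals lay within 0.5 of no difference.

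With PF846, 3 of 48 transcripts passed the same log2 ratio (6.25%, against 3.79% of all transcripts), 3 of them lower (background 2.13%) and 0 higher (background 1.66%). These were NDUFB8, NDUFAB1 and NDUFC2, and the first pair were counted over a region shortened for PF846. Among the 45 transcripts counted over the same region for both compounds, 1 passed (2.22%). The median ratio was -0.013, against 0.00086 over the whole table. NDUFB8 alone passed limma's test at an adjusted p under 0.05 (background 0.249%), and 3 transcripts had an unadjusted p under 0.05 (background 1.57%). The region of NDUFB8 was chosen from the same reads, so its p-value is not independent evidence of a decrease. Standard errors ran from 0.076 to 0.30, with a median of 0.10, and 42 of the 48 intervals lay within 0.5 of no difference. Both comparisons share the vehicle libraries.

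**Figure D3:**
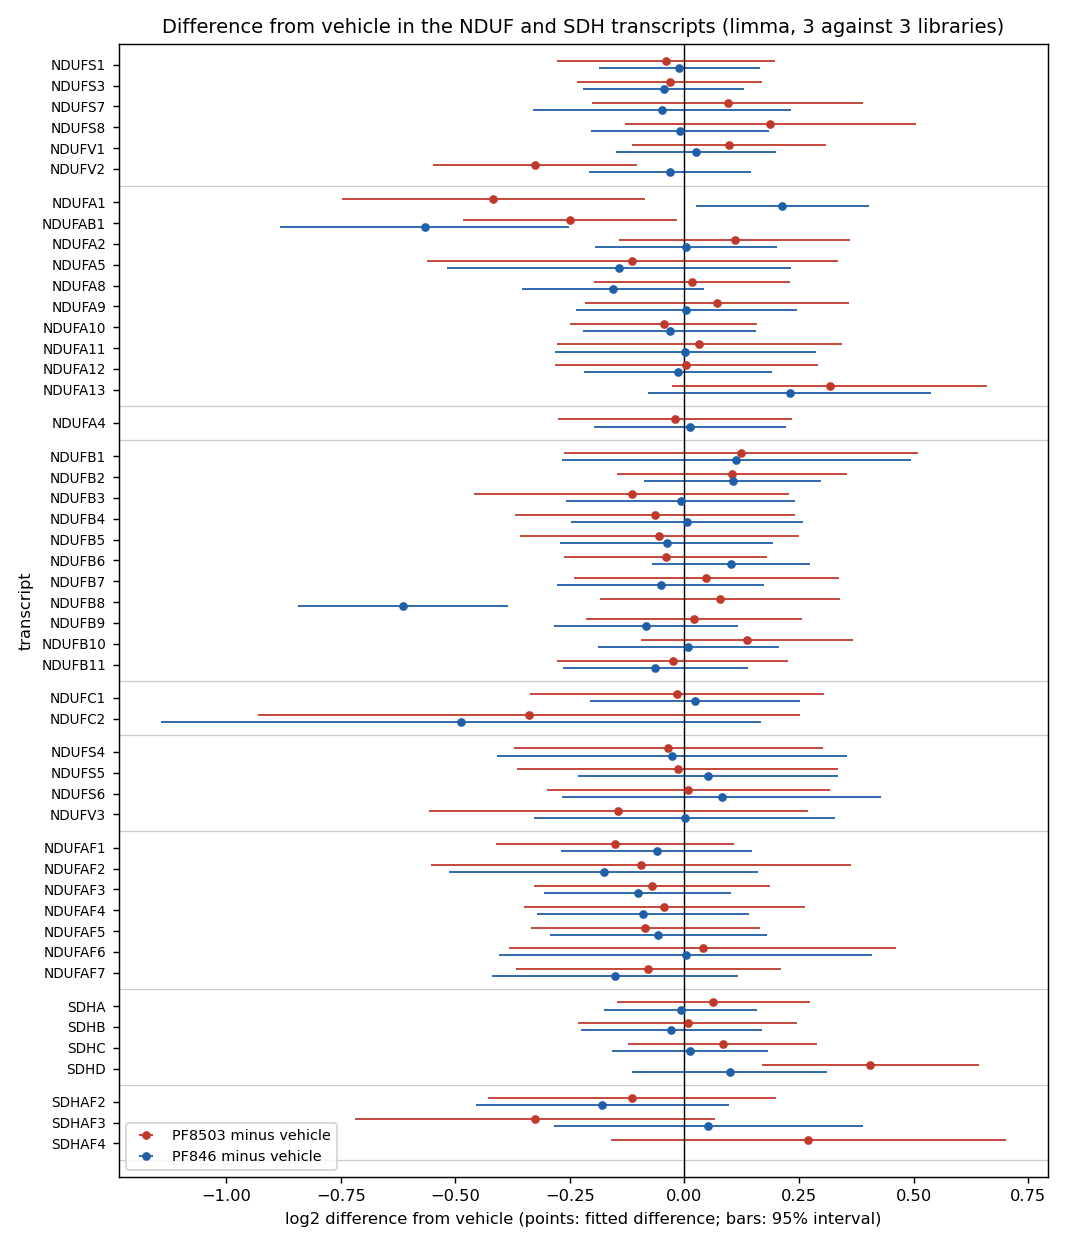
Fitted log2 difference from vehicle (horizontal axis) with its 95% interval for PF8503 (red) and PF846 (blue) in 48 of the 49 transcripts (vertical axis, grouped by role), from 3 against 3 libraries. Most points lie near 0, and NDUFB8 with PF846 at -0.61, over a region chosen from the same reads, is the only one past the adjusted threshold.

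NDUFB8 encodes an accessory subunit of the distal membrane arm of complex I (chromosome 10, 100523740 to 100530000, reverse strand, 186 codons in 5 coding exons). It was singled out with the study's own results on these samples known, and its region for PF846 was chosen from the same reads. Neither its direction nor its p-values with PF846 are therefore independent evidence of a decrease. In the PF846 table its normalized counts were 317, 310 and 355 with vehicle and 218, 209 and 212 with PF846. All 3 PF846 libraries lay below all 3 vehicle libraries, and they were within 10 normalized counts of each other. The mean fell from 328 ± 24.4 to 213 ± 4.54 (SD, n = 3), a decrease that the fit put at a log2 difference of -0.61 (SE 0.10, limma adjusted p = 0.0417). The adjusted p was 0.0422 to 0.0477 with another pseudocount, scaling, model or filter, 0.124 to 0.241 when any single library was left out, 0.23 without library 3 of both conditions, 0.00615 with the batch term and 8.28e-05 with the matched block, while the log2 difference stayed between -0.65 and -0.55.

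With PF8503 the signal of NDUFB8 was 506, 569 and 615 normalized counts, against 513, 496 and 590 with vehicle. The groups overlapped, and the fitted log2 difference was 0.078 (SE 0.12, limma adjusted p = 1). The region counted was not the same, however. The PF846 table counted a shorter part of NDUFB8, which held 274 of 406, 363 of 531 and 502 of 763 of the vehicle reads, or 67.2% ± 1.31 (SD, n = 3). Since that region was chosen from the same reads, as the part 3' of the largest excess, its value is lowered by construction, and no difference between the compounds was computed for it. The annotation places another coding gene (ENSG00000255339) on the same strand over NDUFB8, and its part in the counts was not tested.

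NDUFAB1 is the mitochondrial acyl carrier protein, a subunit of complex I that also serves fatty acid and iron-sulfur cluster synthesis (chromosome 16, 23581014 to 23596316, reverse strand). Its normalized counts in the PF846 table were 875, 925 and 681 with vehicle and 596, 625 and 453 with PF846. The groups did not overlap, and library 3 was the lowest of each. The fitted log2 difference was -0.57 (SE 0.14, limma adjusted p = 0.574), which did not pass. It passed without library 3 (-0.56, adjusted p = 0.0232) with the batch term (adjusted p = 0.000651) and with the matched block (adjusted p = 4.05e-07), and over other pseudocounts, scalings, models and filters and single left-out libraries the adjusted p ran from 0.0625 to 1. Here too the region was the shorter one for PF846, with 47.1% ± 3.00 of the vehicle reads. It was chosen from the same reads, so the value of NDUFAB1 with PF846 is lowered by construction. The p-values over this region are therefore not independent evidence of a decrease. Over the longer region of the PF8503 table it had 1940, 2090 and 1703 normalized counts with vehicle and 1578, 1521 and 1710 with PF8503, and the fitted log2 difference was -0.25 (SE 0.11, limma adjusted p = 1), with overlapping groups.

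NDUFA1 (chromosome X, 119871832 to 119876662, forward strand) is one of the shortest coding sequences of the group, with 70 codons. Its counted region was the shorter one for PF8503, with 70.1% ± 2.43 of the vehicle reads. That region was chosen from the same reads, so the value with PF8503 is lowered by construction. Its p-values with PF8503 are therefore not independent evidence of a decrease. Over that region, signal was 846, 872 and 812 normalized counts with vehicle and 750, 685 and 490 with PF8503, so that all 3 treated libraries lay below vehicle. Library 3 with PF8503 was the lowest of them. The log2 difference was -0.42 (SE 0.15, limma adjusted p = 1), and -0.26 without library 3. The adjusted p was 0.113 with the batch term and 0.0244, which passed, with the matched block, and it ran from 0.543 to 1 over other pseudocounts, scalings, models and filters and single left-out libraries. Over the longer region of the PF846 table the order was the opposite, with 1077, 1124 and 1104 normalized counts with vehicle and 1394, 1177 and 1272 with PF846. That log2 difference was 0.21 (SE 0.086, limma adjusted p = 1), and the groups again did not overlap.

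The 3 transcripts that follow were counted over the same region for both compounds. NDUFC2 (chromosome 11, 78068297 to 78079862, reverse strand) had 583, 571 and 304 normalized counts with vehicle and 441, 439 and 258 with PF8503. In the PF846 table the values were 534, 522 and 278 with vehicle and 365, 413 and 186 with PF846. Library 3 was the lowest in every condition and made the groups overlap, while within libraries 1 and 2, and within library 3, each compound lay below vehicle. The log2 difference was -0.34 (SE 0.27, limma adjusted p = 1) with PF8503 and -0.49 (SE 0.30, limma adjusted p = 1) with PF846. When single libraries were left out, the difference ran from -0.65 (without vehicle library 3) to -0.084 (without PF8503 library 3) with PF8503, and from -0.80 (without vehicle library 3) to -0.14 (without PF846 library 3) with PF846. With PF8503 the adjusted p was 0.164 with the batch term, 0.0688 with the matched block and 0.403 without library 3. With PF846 it passed with the batch term (0.0219) and the matched block (0.000458) and was 0.377 without library 3. Over other pseudocounts, scalings, models and filters and single left-out libraries, the adjusted p ran from 0.825 to 1 with PF8503 and from 0.999 to 1 with PF846. NDUFC2 shares its strand with the readthrough gene NDUFC2-KCTD14, whose part in the counts was not tested.

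NDUFV2 carries an iron-sulfur cluster in the module that oxidizes NADH (chromosome 18, 9102630 to 9134345, forward strand). Its normalized counts were 3988, 4084 and 3800 with vehicle and 2901, 3540 and 3058 with PF8503, with no overlap. The mean was 3957 ± 145 against 3166 ± 333 (SD, n = 3), and the log2 difference was -0.33 (SE 0.10, unadjusted p = 0.00843, limma adjusted p = 0.642), which did not pass. The adjusted p was 0.136 with the batch term and 0.813 without library 3, it passed with the matched block (0.0112), and over other pseudocounts, scalings, models and filters and single left-out libraries it ran from 0.406 to 1. With PF846 the groups overlapped at 3653, 3735 and 3478 against 3832, 3304 and 3510, and the log2 difference was -0.032 (SE 0.080, limma adjusted p = 1). As log2 ratios of the means, among other core subunits of the matrix arm NDUFS1 had -0.034 and NDUFS8 had 0.20 with PF8503, while NDUFS7 had -0.047 and NDUFV1 had 0.023 with PF846.

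SDHD, a membrane anchor of complex II, had the highest value with PF8503 (chromosome 11, 112086824 to 112120016, forward strand). Its normalized counts were 328, 348 and 364 with vehicle and 475, 464 and 439 with PF8503. Every PF8503 library lay above every vehicle library, 1.32-fold in the means of 347 ± 18.1 and 460 ± 18.8 (SD, n = 3). The log2 difference was 0.41 (SE 0.11, unadjusted p = 0.00326, limma adjusted p = 0.351), which did not pass, and it was 0.47 without library 3 (adjusted p = 0.245), with an adjusted p of 0.0826 under the batch term. It passed with the matched block (adjusted p = 0.0258), and over other pseudocounts, scalings, models and filters and single left-out libraries the adjusted p ran from 0.302 to 1. With PF846, SDHD had 328, 346 and 346 normalized counts against 301, 318 and 334 with vehicle, and the log2 difference was 0.099 (SE 0.097, limma adjusted p = 1). The annotation places another coding gene (ENSG00000255292) on the same strand over SDHD, and its part in the counts was not tested. Such an overlap was annotated for 13 of the 49 transcripts. SDHA, SDHB and SDHC had log2 ratios of the means of 0.066, 0.0067 and 0.084 with PF8503 and of -0.0080, -0.031 and 0.011 with PF846.

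**Figure D4:**
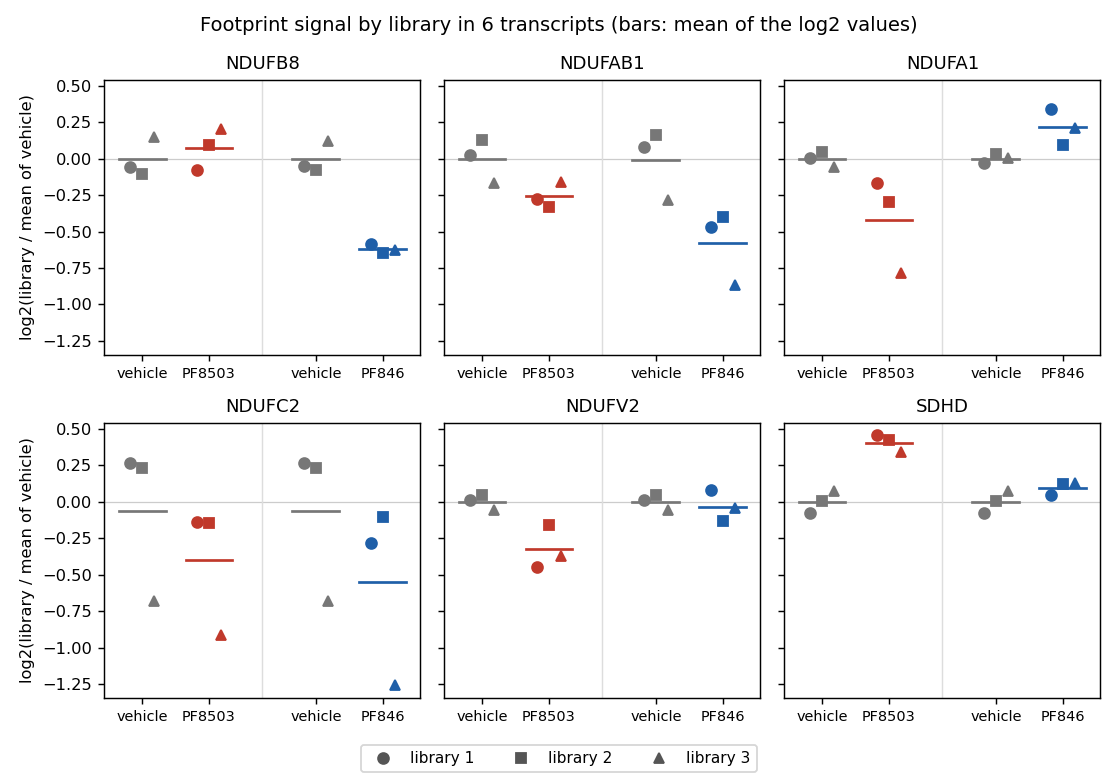
Log2 ratio of each library to the mean of its vehicle libraries (vertical axis) in 6 transcripts, with vehicle and PF8503 from the PF8503 table on the left of each panel and vehicle and PF846 from the PF846 table on the right; symbols give the library number and bars the mean of the log2 values. NDUFB8 with PF846 lies below vehicle in 3 of 3 libraries, SDHD with PF8503 lies above it in 3 of 3, and library 3 of NDUFC2 lies low in every condition.

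The remaining transcripts past a log2 ratio of 0.25 with PF8503 were NDUFA13, SDHAF3 and SDHAF4. NDUFA13, an accessory subunit, had 467, 541 and 652 normalized counts with vehicle and 731, 563 and 775 with PF8503, a log2 difference of 0.32 (SE 0.15, limma adjusted p = 1) with overlapping groups. SDHAF3, an assembly factor for the iron-sulfur subunit SDHB, had 265, 251 and 176 with vehicle and 166, 211 and 169 with PF8503, which also overlapped (-0.33, SE 0.18, limma adjusted p = 1). SDHAF4 had the lowest signal of the group, at 54.3, 50.5 and 40.2 with vehicle and 56.4, 57.3 and 60.5 with PF8503. These did not overlap, at a log2 difference of 0.27 (SE 0.19, limma adjusted p = 1). In all, the libraries did not overlap for 2 transcripts above vehicle (SDHD and SDHAF4, background 2.96%) and 2 below (NDUFV2 and NDUFA1, background 3.98%) with PF8503, and with PF846 for 2 above (NDUFA1 and NDUFB6, background 2.29%) and 2 below (NDUFB8 and NDUFAB1, background 2.80%).

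In the NDUFB group apart from NDUFB8, the log2 ratios of the 10 other subunits ran from -0.098 (NDUFB3) to 0.13 (NDUFB10) with PF8503 and from -0.089 (NDUFB9) to 0.10 (NDUFB2) with PF846. The 7 complex I assembly factors lay between -0.15 (NDUFAF1) and 0.042 (NDUFAF6) with PF8503 and between -0.19 (NDUFAF2) and 0.0051 (NDUFAF6) with PF846, and 6 of 7 were below vehicle with each compound. Both counts use the same vehicle libraries, so they are not independent. The 14 complex I assembly factors with other names, listed below, had median log2 ratios of 0.0021 with PF8503 and -0.021 with PF846. Over the NDUF and SDH transcripts as a whole, 26 of 49 were below vehicle with PF8503 (background 45.3%) and 30 of 48 with PF846 (background 49.7%).

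Summed over their subunits, the complexes took small shares of all counted reads. Complex I subunits held 0.504% to 0.540% of the reads in the vehicle libraries and 0.499% to 0.535% with PF8503, and over the regions of the PF846 table they held 0.489% to 0.524% with vehicle and 0.489% to 0.509% with PF846, so that the ranges overlapped. Complex II subunits held 0.0622% to 0.0645% with vehicle and 0.0655% to 0.0686% with PF8503, ranges that did not overlap. As sums of normalized counts the ranges did overlap, at 5940 to 6225 with vehicle and 6165 to 6568 with PF8503. Among single transcripts, 2.96% had all PF8503 libraries above all vehicle libraries, but that share is not a background for a sum over several transcripts. In the PF846 table the ranges overlapped, at 0.0614% to 0.0635% with vehicle and 0.0607% to 0.0644% with PF846. These sums include SDHD, with means of 347 with vehicle and 460 with PF8503. They also include SDHA (2171 and 2272), SDHB (1332 and 1338) and SDHC (2188 and 2318), whose libraries overlapped. The sums were not tested.

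PF8503 and PF846 were then compared directly, at the same dose and time, for the 45 transcripts counted over the same region in both tables. None passed limma's test over 9 libraries at an adjusted p under 0.05 (background 0.0232%), and 3 had an unadjusted p under 0.05 (background 2.33%). SDHD was higher with PF8503 by a log2 difference of 0.30 (95% interval 0.10 to 0.51, unadjusted p = 0.00711, adjusted p = 1). NDUFV2 differed by -0.30 (-0.50 to -0.09, unadjusted p = 0.00781, adjusted p = 1) and SDHAF3 by -0.38 (-0.73 to -0.03, unadjusted p = 0.0349, adjusted p = 1). For NDUFC2 the interval was wide, from -0.55 to 0.84. The intervals of 39 of the 45 differences lay within 0.5 of no difference, so that a larger difference between the compounds was not found for those 39. With the matched block NDUFV2 passed (adjusted p = 0.02), and its adjusted p was 0.297 with the batch term and 0.894 to 1 over other pseudocounts, scalings and single left-out libraries.

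Other genes of the same pathways were taken from lists. Over all transcripts, limma at an adjusted p under 0.05 called 0.405% with PF8503 and 0.249% with PF846. An unadjusted p under 0.05 was reached by 3.03% and 1.57%. At these shares most lists of this size would hold no call, so that 0 calls is not a result about a pathway. Of 14 complex I assembly factors with other names (such as ACAD9, ECSIT and TIMMDC1), 14 were measured and 0 passed limma's test with either compound, with 0 at an unadjusted p under 0.05. The 13 enzymes of the citric acid cycle gave 0 of 13 with each compound, likewise with 0 at an unadjusted p under 0.05, and their lowest log2 ratio with PF8503 was -0.19 (SUCLA2), while with PF846 the ratios ran from -0.039 (MDH2) to 0.057 (IDH3B). Of 8 other dehydrogenases that feed ubiquinone, 6 were measured and 0 passed, nor had any an unadjusted p under 0.05. For iron-sulfur cluster assembly 14 of 15 were measured and 0 passed, and the 1 with an unadjusted p under 0.05 was NDUFAB1 with both compounds. Past a log2 ratio of 0.25 in that list with PF8503 were also LYRM4 (-0.43, adjusted p = 1 by limma) and FDXR (0.36, adjusted p = 1 by limma), the first a partner of the cysteine desulfurase and the other a reductase of the ferredoxins. LYRM4 was counted over a region shortened for PF8503, with a vehicle mean of 72.4 normalized counts against 132 in the PF846 table, where its log2 ratio was 0.23. The 7 complex I subunits encoded in mitochondrial DNA had log2 ratios of the means of -0.52 to -0.089 with PF8503 and of 0.15 to 0.40 with PF846, with 0 of 7 passing limma's test in either comparison and an unadjusted p under 0.05 for 1 and 0 of them. The standard errors of their fitted differences ran from 0.12 to 0.28 with PF8503 and from 0.12 to 0.27 with PF846.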

How the data were processed

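Ribosome profiling libraries of Huh-7 cells were grouped by the treatment in their labels. Per the methods, the authors aligned reads with Bowtie to canonical coding transcripts (GENCODE version 24, GRCh38), kept single-position alignments, began counting 3' of DMax if its Z score reached 2, or else 10 codons past the start, omitted the 10 final codons and required over 30 counts. Versions of Bowtie and DESeq are not given in the sources used here. Each signal deposited by the authors is a mean per condition of counts divided by DESeq size factors. The authors' fold changes and p-values in the same tables were not used.

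Each mean is a sum of 3 whole numbers with fixed weights, so the counts of single libraries were recovered by lattice reduction. Transcripts with a mean of 50000 or more, or without a single solution, were left out (11 and 7). On simulated means 99.96% and 100% of transcripts were recovered exactly. Library totals limit the precision. Counts over the same region in both tables were recognised by vehicle means at their constant ratio, within 0.002 on the log2 scale. limma 3.58.1 (R 4.3.3, lmFit and eBayes with a trend) was fitted to log2(normalized count + 1) over all transcripts, with Benjamini-Hochberg adjustment; on this scale the change of low transcripts is understated. Tested on simulated data, it recovered 100% of changes of 1 on the log2 scale in each comparison, and of changes of 0.5 it recovered 61% with PF8503, 85% with PF846 and 71% between the compounds. Of the simulated calls, 4.73%, 7.04% and 1.16% were unchanged transcripts. The simulation changed 200 transcripts, gave all of them the median dispersion and held no shared library deviations. Recovery of noisier transcripts, such as NDUFC2, was therefore not measured. Python 3.11.15, numpy 2.4.6, pandas 2.3.3 and matplotlib 3.10.9 were also used.

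Codons, coordinates and sequences come from GENCODE version 44 (GRCh38), in which 49 of 49 symbols were matched. Named were NDUFB8, SDHA to SDHD, the core subunits (1 is not reported here), transcripts past a log2 ratio of 0.25 or an adjusted p of 0.05, the 3 highest and 3 lowest densities, and those with another region or in 1 table only; NDUFA5, NDUFB6 and the ends of group ranges were named after their values were seen. The group and lists were chosen with earlier results of these data known. Alternatives were other pseudocounts, scalings, weights, filters and fold limits, and leaving out each library, with 16 settings of the fit. Size factors recomputed from the recovered counts were within 0.0149% of those used.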

Additional observations from a re-analysis of the deposited data

Results flagged for a closer look

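NDUFA1 drew attention because every PF8503 library lay below every vehicle library and every PF846 library lay above every vehicle library. The log2 ratio of the means with PF8503 minus that with PF846 was -0.61. The difference was not tested, since the tables counted different regions of NDUFA1, the shorter one for PF8503, which begins 3' of the codon where the cumulative reads of that compound and vehicle differed most.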

How the results depend on the processing

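Results are listed where an alternative moved them. With a log2 limit of 0.5, 0 transcripts passed with PF8503, and with a limit of 0.15, 10 passed with PF846. Among transcripts counted over the same region in both tables, 5 passed with PF8503 and 1 with PF846. Leaving out the 3 libraries that stand apart gave a median log2 ratio of -0.046 and an NDUFB8 log2 ratio of -0.55 with PF846, with a fitted -0.55 that no longer passed (adjusted p = 0.23). Over all codons of the protein, the highest density was 195 times the lowest, against 244. When single libraries were left out, the number called with PF846 was 0 in every case, and the fitted NDUFB8 difference ran from -0.65 to -0.55. The batch term gave 3 calls with PF846, namely NDUFB8, NDUFAB1 and NDUFC2, of which NDUFB8 and NDUFAB1 were counted over regions chosen from the same reads. Over all 8832 transcripts it gave 33 calls, against 22 without it. With PF846, NDUFV2 ran from -0.088 to 0.019 when single libraries were left out, the last without PF846 library 2, and between the compounds NDUFC2 ran from -0.21 to 0.40, the first without PF846 library 3; both are opposite in sign to the values reported. Of 264 values under alternatives, 229 kept their direction and side of the threshold or stayed within their spread.

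No paired analysis was possible by the replicate numbers of the labels because the recovered libraries do not carry them, and libraries were matched by their values instead. The deviations of libraries 1 and 2 matched across conditions, with an r of 0.40 to 0.55 for matched and of -0.081 to 0.22 for other pairs, and library 3 matched library 3. A replicate block built from these matches, a hint from the data and not the design, gave 3 calls with PF8503 (NDUFA1, NDUFV2 and SDHD), 3 with PF846 (NDUFB8, NDUFAB1 and NDUFC2) and 1 between the compounds (NDUFV2). Over all transcripts it called 150 of 9146, 61 of 8832 and 40 of 8629, against 37, 22 and 2 in the main fit. This block was chosen after the values were seen, by the same deviations that it removes. NDUFA1 with PF8503, and NDUFB8 and NDUFAB1 with PF846, were also counted over regions chosen from the same reads. With 3 libraries, the 95% interval of a difference between the compounds reached a median of 0.26 on the log2 scale to either side.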
